A study of Mus musculus with 1 sample.

Results

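Macroautophagy is the pathway by which a cell wraps part of its own contents in a double membrane and delivers it to lysosomes. A kinase complex starts the process, a lipid kinase complex marks the membrane, lipid carriers enlarge it, and conjugation enzymes attach proteins of the LC3 and GABARAP family, to which cargo receptors bind. In macrophages part of the same machinery also attaches LC3 to phagosomes that hold ingested material. The 39 genes described here cover these steps and were chosen by gene symbol, with earlier results of these data known. Of them 36 had a named probe on the array, out of 19321 named genes in all, and these 36 genes were read by 41 probes. The protease gene Atg4d, the GABARAP-like gene Gabarapl2 and the receptor gene Optn have no probe named in the annotation used, and no value is given for them.

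The data are 1 Cy5 array of total RNA from the parental line of RAW264.7, a mouse macrophage-like line transformed by Abelson leukaemia virus, grown in medium with 10% fetal calf serum. The parental cells are those from which the mutants were made with the alkylating mutagen ENU. The study's design compares them with ENU-mutagenised lines that no longer take up peroxiredoxin; arrays of those lines were not analysed here, no comparison of lines is made and no p-value is given. There is no replicate, and with 1 array the precision of each value is limited.

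Signals are spot medians in the Cy5 channel in arbitrary units, with nothing subtracted, and a gene takes its highest probe. Signal depends on the probe as well as on the transcript, so genes are set against limits and not ranked against each other. The first limit, 22.98, is the mean plus 2 SD of the empty spots and is called the blank limit. The second, 55.8, is the 95th percentile of 1221 probes of smell and taste receptors and is called the receptor limit. Most of these receptor genes were assumed to be little used in a macrophage line, which was not tested. The 24 spots of each of the 2 positive controls gave coefficients of variation of 4.98% and 5.37%, which is the spread between spots of the same content within this array. On the markers checked, the cells looked as labelled. All 10 macrophage markers passed both limits, while of 24 markers of T cells, B cells, granulocytes, fibroblasts and epithelia 3 passed the receptor limit, namely Csf3r, S100a8 and Cldn4. The blank limit separates less: 16 of these 24 markers, or 66.7%, and 451 of 1210 smell and taste receptor genes, or 37.3%, were over it too.

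Most of the autophagy machinery gave signal in these cells. Of 36 genes, 32 passed the blank limit, or 88.9% (exact Clopper-Pearson 95% interval 73.9 to 96.9), beside 72.8% of all named genes. The receptor limit was passed by 29 genes, or 80.6% (64.0 to 91.8), beside 42.7% of all named genes. With the 99th percentile of the receptor probes as the limit, 16 members passed, or 44.4%, beside 27.5% of all named genes. The intervals treat genes as draws and cover no difference between arrays. Between the limits lay Rb1cc1, Atg3 and Atg4c, and Ambra1, Atg9a, Wipi1 and Calcoco1 were not over the blank limit. The median signal of the 36 genes was 129.9, beside 40.1 over all named genes.

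**Figure D1:**
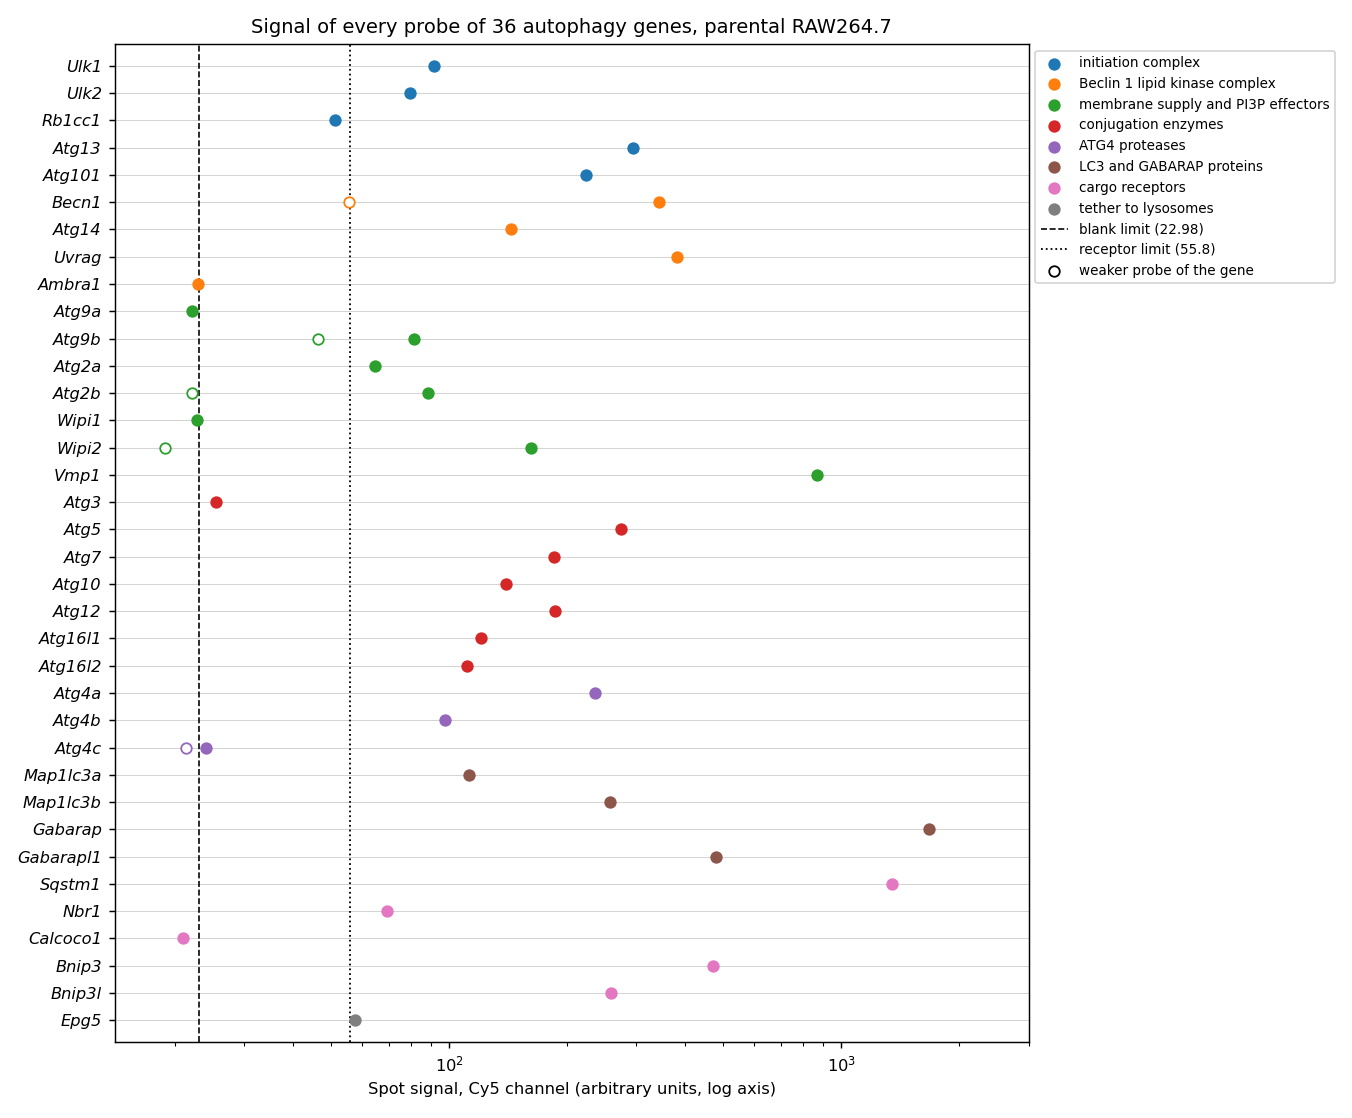
Spot signal in the Cy5 channel (arbitrary units, log axis) of each of the 41 probes of 36 autophagy genes on the 1 parental array, coloured by role. Filled points are the highest probe of a gene and open points its weaker probe; the dashed line is the blank limit of 22.98 and the dotted line the receptor limit of 55.8, which 29 genes passed.

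Compared with all named genes, the members had a larger share over the upper quartile, a like share among the brightest genes and a smaller share at the lowest signals. The upper quartile of all named genes, 172, was passed by 15 of the 36 genes, or 41.7%, beside 25% of all genes by construction. The highest 10% of all genes began at 634.6, and 3 of the 36, or 8.33%, read higher, namely Gabarap, Sqstm1 and Vmp1. At the lower end the members split into a group of 6 genes at 25.4 or less and a group of 30 at 51.1 or more. By its highest probe no member lay between these values, although the weaker Atg9b probe read 46.4. Of all named genes, 21.9% lay between them and 33.6% at or below the lower one. This gap was noticed after the values had been seen and is given as a description.

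**Figure D2:**
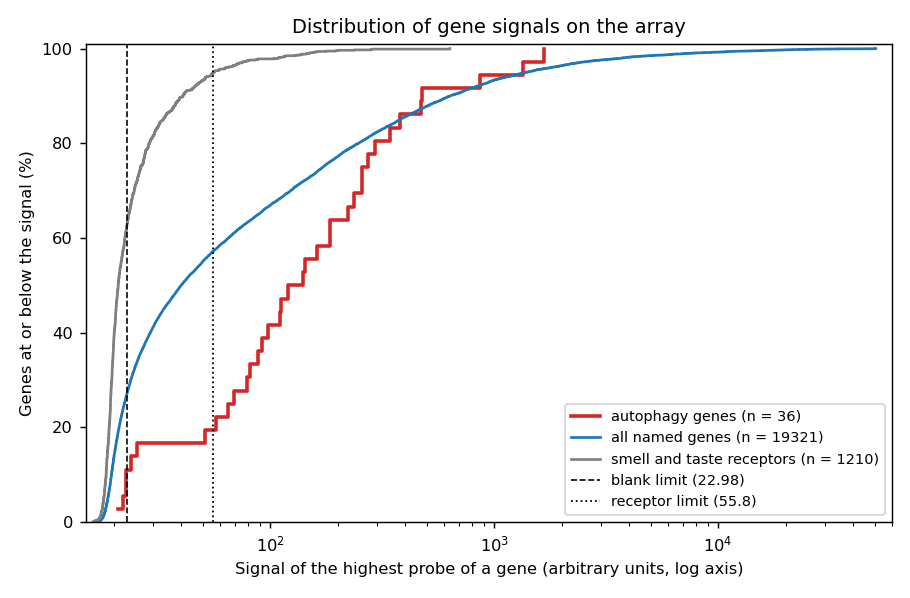
Cumulative share of genes (percent) at or below a given signal of their highest probe (arbitrary units, log axis) for the 36 autophagy genes, all 19321 named genes and 1210 smell and taste receptor genes, with the blank limit of 22.98 (dashed) and the receptor limit of 55.8 (dotted). The curve of the autophagy genes lies right of that of all genes from the lowest signals to beyond the upper quartile of 172. It is flat between 25.4 and 51.1.

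The promoters of 32 of the 39 genes, taken as the 250 bases before the RefSeq start in GRCm38.p6, were read for the 6 letters CACGTG, the palindromic core of the site bound by the MiT/TFE factors TFEB, TFE3 and MITF, which drive genes of autophagy and lysosomes. Atg12, Atg16l1, Becn1, Bnip3l, Epg5, Map1lc3a and Rb1cc1 were not among the 32. The letters stood in 4 of the 32, or 12.5%, beside 6.86% of 27025 genes with a promoter in the table. These 4 promoters are shown because the signals of the MiT/TFE genes themselves are given further on; capitals mark the motif, and each sequence runs 5′ to 3′ towards the start of its gene.
Atg3, chr16:45158579-45158828, plus strand: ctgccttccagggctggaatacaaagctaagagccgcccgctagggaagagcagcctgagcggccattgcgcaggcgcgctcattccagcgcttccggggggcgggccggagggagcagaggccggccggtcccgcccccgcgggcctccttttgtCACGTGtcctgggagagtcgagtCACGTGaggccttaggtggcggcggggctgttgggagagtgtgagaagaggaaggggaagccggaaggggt
Atg5, chr10:44268089-44268338, plus strand: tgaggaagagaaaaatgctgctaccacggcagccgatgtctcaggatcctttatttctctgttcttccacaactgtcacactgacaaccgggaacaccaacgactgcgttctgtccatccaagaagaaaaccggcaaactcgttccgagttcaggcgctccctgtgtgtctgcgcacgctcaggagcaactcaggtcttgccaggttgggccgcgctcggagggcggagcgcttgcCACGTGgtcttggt
Atg7, chr6:114670846-114671095, plus strand: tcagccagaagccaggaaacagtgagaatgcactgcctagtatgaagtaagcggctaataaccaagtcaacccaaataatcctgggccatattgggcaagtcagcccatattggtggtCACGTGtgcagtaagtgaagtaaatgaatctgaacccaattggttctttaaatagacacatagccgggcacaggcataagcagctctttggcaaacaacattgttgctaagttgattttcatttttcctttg
Bnip3, chr7:138909507-138909756, minus strand: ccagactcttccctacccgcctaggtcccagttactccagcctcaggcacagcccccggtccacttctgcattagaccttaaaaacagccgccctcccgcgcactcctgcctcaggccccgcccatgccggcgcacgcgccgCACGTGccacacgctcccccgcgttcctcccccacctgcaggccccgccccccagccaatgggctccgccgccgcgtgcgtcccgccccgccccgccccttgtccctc

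Atg3 held the motif at 2 places, whose first bases lie 94 and 71 bases before the start, and the other promoters held it once, at 14 bases in Atg5, 132 in Atg7 and 108 in Bnip3. The 4 genes did not fall on the same side of the receptor limit: Atg5, Atg7 and Bnip3 passed it and Atg3 did not. The antioxidant response element TGACNNNGC, searched on both strands, stood in the promoters of Atg13, Ulk2 and Vmp1, or 9.38% of the 32, beside 11.5% of all genes. The 5 letters ACGTG, the core of the site of hypoxia-inducible factors, stood on either strand in 12 of the 32, or 37.5%, beside 18.5% of all genes, and every CACGTG also counts as an ACGTG. A match of letters is not a bound site. The members' promoters held more CpG than the median promoter, counted in a gene's richest promoter, with a median of 16.5 CpG in 250 bases (range 1 to 43) beside 6 over all genes. CACGTG and ACGTG each contain a CpG, and their shares were not adjusted for CpG count. Whether the members hold these letters more often apart from CpG content was not tested. The 4 member genes not over the blank limit had counts of 7, 14, 15 and 19, with a median of 14.5. The 25 members over it with a matched promoter had a median of 20. Those 25 include the lowest and the highest count, Atg9b at 1 and Atg4b at 43. A link between CpG and signal was not tested.

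In the initiation complex, all 5 genes gave signal over the blank limit, 4 of them also over the receptor limit. Ulk1 and Ulk2 encode the kinases that start autophagosome formation, and they read 91.6 and 79.2, or 1.64 and 1.42 times the receptor limit. Atg13, the adaptor that links the kinase to its scaffold, read 294, and Atg101, which stabilises Atg13, read 223. Rb1cc1, the scaffold protein FIP200, read 51.1, which is 2.22 times the blank limit and 0.915 times the receptor limit. The scaffold gene thus lay in the range between the limits that also holds 390 of 1210 smell and taste receptor genes. Its spot was 1.21 times its local background, against 1.83 to 3.32 times for the other 4 genes.

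In the lipid kinase complex around Beclin 1, which makes the lipid PI3P on the growing membrane, 3 of 4 genes passed both limits. Becn1, the core subunit, has 2 probes on the array. Probe M200011875 read 342 and probe M200012736 read 55.5, so the weaker probe lay just under the receptor limit at 0.995 times. Atg14, which directs the complex to sites of autophagosome formation, read 143, and Uvrag, its counterpart on endosomes, read 380.5. Ambra1, a Beclin 1 partner that regulates the kinase complexes, read 22.8 on its 1 probe (M300012703), or 0.994 times the blank limit. That reading was less than 1 SD of the blanks, 1.18, from the limit, and it was 1.02 times the limit set from the blanks of its own block.

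Genes of membrane supply and of PI3P binding included 2 of the 4 members whose signal did not exceed the blank limit. Of 7 genes, 5 passed both limits, and Atg9a and Wipi1 passed neither. Vmp1, an endoplasmic reticulum protein that moves lipids between membrane leaflets, read 868, or 15.6 times the receptor limit. Atg2a and Atg2b carry lipids to the growing membrane; Atg2a read 64.7, while Atg2b read 88.3 on probe M200007571 and 22.1 on probe M300017301. Wipi2, which binds PI3P and brings in the conjugation machinery, read 161 on probe M300006749 and 18.8 on probe M400005427. The paired probes of Atg2b and Wipi2 thus fell on opposite sides of both limits. Of the 5 members with several probes, 4 had probes on either side of the receptor limit, as did 452 of 1283 such genes on the array, and the platform annotation gives no transcript record for the low Wipi2 probe.

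Atg9a, the transmembrane protein of the vesicles that seed the membrane, read 22.1 (probe M300008599), and Wipi1, a second PI3P-binding protein, read 22.8 (probe M300013419), which is 0.962 and 0.991 times the blank limit. The annotation ties the Atg9a probe to a non-coding transcript record and the Wipi1 probe to none. Atg9b, the paralog of Atg9a, read 81.1 on probe M400013691 and 46.4 on probe M300011477, which lie on either side of the receptor limit. Levels of Atg9a and Atg9b are not compared, because they come from different probes, and whether the Atg9a and Wipi1 probes respond to their transcripts was not tested.

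The conjugation enzymes, which attach ATG12 to ATG5 and LC3 to lipid much as ubiquitin is attached to proteins, all passed the blank limit, and 6 of 7 passed the receptor limit. Atg7, the activating enzyme of both reactions, read 185, Atg10, which transfers ATG12, read 139.8, and Atg12 itself read 186. Atg5, the acceptor of ATG12, read 274, and Atg16l1, which places the ATG12-ATG5 conjugate on the membrane, read 121. Its paralog Atg16l2 read 111. These 6 genes lay between 1.98 and 4.91 times the receptor limit. The exception was Atg3, the enzyme that transfers LC3 to lipid, which read 25.4 on its 1 probe (M200013744), or 1.104 times the blank limit and 0.455 times the receptor limit. Its spot exceeded its local background 1.16 times.

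The ATG4 proteases trim LC3 and GABARAP proteins before conjugation and release them afterwards. Atg4a read 236 and Atg4b read 97.6, both over the receptor limit. Atg4c read 23.9 on probe M300006154, or 1.04 times the blank limit, and 21.4 on probe M300017111, which is 0.929 times that limit and below its own local background of 22.8.

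The 4 measured genes of the LC3 and GABARAP family, the proteins that mark autophagosomes and hold cargo receptors, all passed both limits. Map1lc3b, the LC3 form most used as an autophagosome marker, read 257, and Map1lc3a read 112. Gabarap read 1670.4, or 72.7 times the blank limit, and Gabarapl1 read 478. All 4 lay at 2.02 or more times the receptor limit. The Map1lc3a probe is annotated to a non-coding transcript record, and binding of transcripts of other family members or of pseudogenes to these probes was not tested.

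Among cargo receptors, 4 of 5 measured genes passed both limits. Sqstm1, which encodes the receptor p62 for ubiquitin-marked cargo, read 1346, or 58.6 times the blank limit, and Nbr1, a related receptor, read 69.3. The receptors on mitochondria Bnip3 and Bnip3l, the second also known as NIX, read 470.4 and 258. Calcoco1, a receptor for parts of the endoplasmic reticulum, read 20.9 (probe M200005696), or 0.909 times the blank limit, and 0.933 times the limit set from the blanks of its block. Epg5, the tether that joins autophagosomes to lysosomes, read 57.3, or 1.03 times the receptor limit, a margin smaller than the spread between positive control spots.

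Local background moved with some of these readings. Among the 29 genes over the receptor limit the spot exceeded its surroundings by a median of 3.32 times, beside 2.96 times for all named genes over that limit. Gabarap and Sqstm1 stood clear of their surroundings at 30.3 and 29.0 times, with local backgrounds of 55.2 and 46.4. At 10 member genes the local background alone was higher than the receptor limit, which has nothing subtracted. The share of all named genes with such a background was not counted, so this is not given as a trait of the members. Among these 10 genes Bnip3 had a local background of 237, Uvrag 174 and Gabarapl1 139.9. The spots of Bnip3, Uvrag and Gabarapl1 were 1.98, 2.19 and 3.41 times as bright. Atg2a was 1.39 times its local background, the lowest ratio among the 29. With local background subtracted, Atg2a read 18.1 against a receptor limit of 27.0 computed the same way and did not pass it. Of all 41 member probes, 2 read below their local background, the Wipi1 probe and the weaker Atg4c probe. The share of all probes on the array that did so was not counted. The part of light from neighbouring spots in these readings was not tested.

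**Figure D3:**
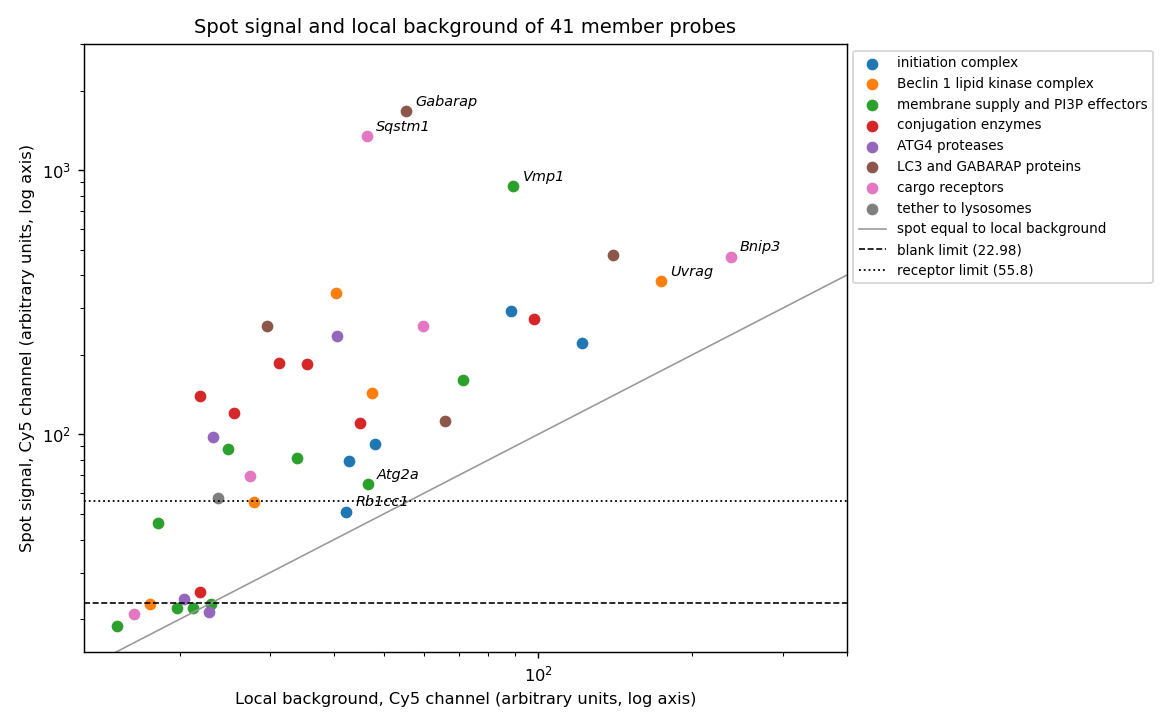
Spot signal against local background in the Cy5 channel (both in arbitrary units, log axes) for the 41 probes, coloured by role, with the blank limit of 22.98 (dashed), the receptor limit of 55.8 (dotted) and the line on which spot and background are equal. Gabarap and Sqstm1 lie far above the line of equality at 30.3 and 29.0 times their background, Bnip3 lies at 1.98 times, and 2 probes lie below the line.

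Genes that work with this machinery also gave signal nearly throughout. Of 62 such genes in 6 lists, 58 had a named probe, 57 passed the blank limit and 52, or 89.7%, passed the receptor limit, beside 42.7% of all named genes. Among further core proteins, 8 of 8 measured were over the blank limit and 6 over the receptor limit as well. Pik3c3, the catalytic subunit of the PI3P-making kinase, read 270.5, and Pik3r4, its regulatory subunit, read 129 and 53.9 on its 2 probes. Wdr45 and Wdr45b, relatives of the WIPI proteins, read 57.4 and 203. The Wdr45 reading was 1.03 times the receptor limit, a margin smaller than the spread between positive control spots. Rubcn, the Beclin 1 partner needed for LC3-associated phagocytosis, read 52.7, between the limits, as did the membrane-bending protein gene Sh3glb1 at 28.9.

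Among nutrient-sensing genes, which hold autophagy back or release it, 14 of 14 were over the blank limit and 13 over the receptor limit as well. The kinase gene Mtor read 221, its partners Rptor and Akt1s1 read 115 and 128, and Mlst8 read 84.6 on 1 probe and 21.0 on the other. Tsc1, a brake on this kinase, lay between the limits at 27.1. The 7 transcription factors of autophagy genes had 6 over the blank limit and 5 over the receptor limit. Among the MiT/TFE factors, Mitf read 1037 on 1 probe and 54.8 on the other. The brighter Mitf spot was 1.34 times its local background of 775, and the weaker 2.17 times its own. Tfe3 read 57.2, Tfeb lay between the limits at 45.2, and Tfec was not over the blank limit at 18.8. Foxo1 read 58.4, and Foxo3 read 221 and 31.0 on its 2 probes. The Tfe3 and Foxo1 readings were 1.025 and 1.047 times the receptor limit, margins smaller than the spread between positive control spots.

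Of 11 further receptor and mitophagy genes, 10 passed both limits, with the ubiquitin-binding receptor gene Tax1bp1 at 1231, the adaptor gene Tollip at 326, the mitochondrial receptor gene Fundc1 at 344 and Retreg1, a receptor for the endoplasmic reticulum, at 378. The mitophagy kinase gene Pink1 read 49.8 and lay between the limits. All 14 genes of fusion with lysosomes passed both limits, among them the SNARE genes Stx17, at 108 and 78.3 on its 2 probes, Snap29 at 122, Vamp8 at 1204 and Ykt6 at 495. The brighter Stx17 spot was 1.13 times its local background of 95.6, and the weaker 2.76 times its own. All 4 measured genes of the NADPH oxidase that acts in LC3-associated phagocytosis passed both limits, with Cybb at 2789, Cyba at 8522, Ncf1 at 1422 and Ncf4 at 987. In an alternative chosen after the data had been seen, local background was subtracted. Of the 58 genes, 49 then passed the receptor limit computed the same way, beside 41.3% of all named genes. Fundc1, whose spot was 1.004 times its local background of 342, Akt1s1, at 1.23 times, and Tfe3, at 1.64 times, did not pass it. The median signal was 129.9 for the 36 members, beside 221 for these 58 genes and 40.1 for all named genes.

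**Figure D4:**
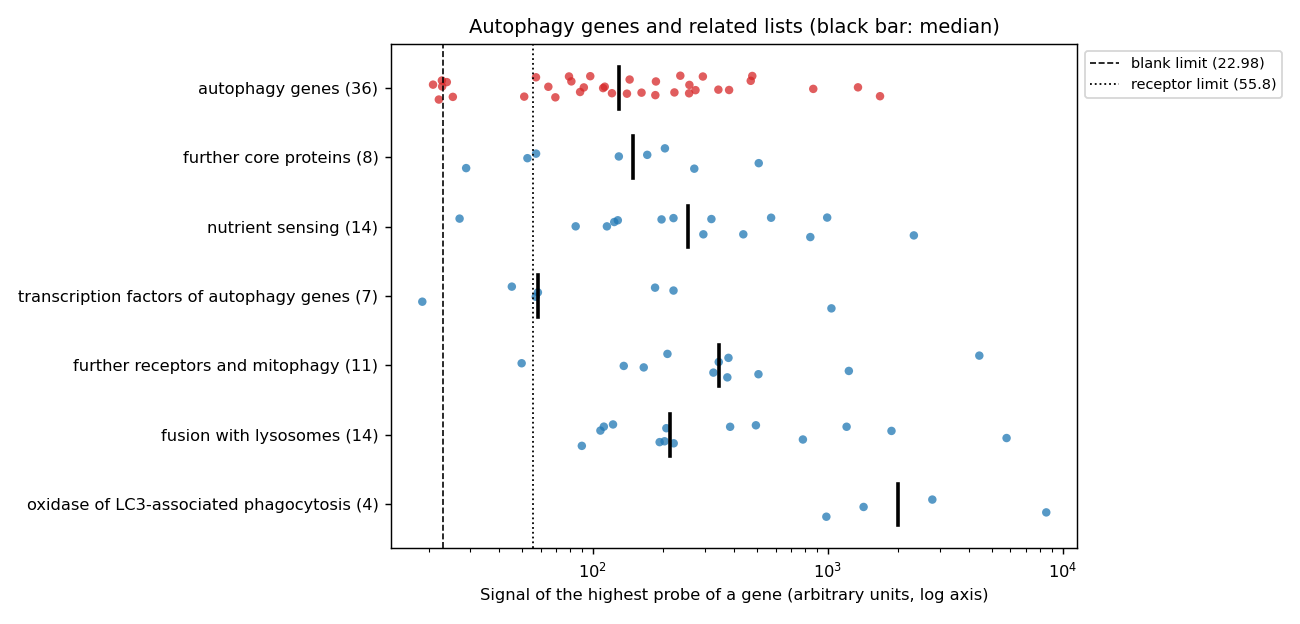
Signal of the highest probe (arbitrary units, log axis) of the 36 autophagy genes (top row) and of 58 genes in 6 related lists, 1 point per gene, with black bars at the medians and the blank limit of 22.98 (dashed) and receptor limit of 55.8 (dotted). The 14 fusion genes and the 4 oxidase genes all lie right of the receptor limit, while 6 of the related genes lie left of it.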

How the data were processed

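The deposited scanner file holds, per the file headers, the median intensity of each spot and of its local background at 635 nm from 3 gains, with nothing subtracted; no source used here says how the gains were combined. A second file from the authors holds processed intensity values, whose processing the labels do not state. From the values, its numbers are the spot median minus the mean of the blanks, times 0.486, with probes under the blank limit left empty, and its median is 25; why that scale was chosen is unknown. It placed all 36 genes on the same side of the blank limit. That follows from its use of the same spots and limit and is no independent check.

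The blank limit is the mean plus 2 SD of the 2464 blanks left after 5% were dropped at each end (mean 20.6, SD 1.18). Probes were named from the platform annotation and updated by gene identifier to RefSeq symbols of GRCm38.p6; 20690 of 23473 probes had 1 symbol and 20556 of these matched. Promoter sequences are RefSeq's. The members and lists were chosen with earlier results of these data known. All members are named, and of related genes those not over the receptor limit plus up to 4 a list in a set order. The calculation of the limit and of the share over it was tested on simulated data. Python 3.11.15, scipy 1.17.1 and, for normexp with an offset of 50, limma 3.58.1 were used.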

Additional observations from a re-analysis of the deposited data

How the results depend on the processing

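With 1 array no left-out sample, and no paired analysis, was possible because there is 1 group of 1 sample. Over 11 other settings the number of members over the blank limit lay between 29 and 35, or 80.6% to 97.2%. The share of all named genes over it lay between 63.2% and 77.2%. Among these settings, the authors' table rescales the same spot values and is no independent check, and there the number was 32. The number over the receptor limit lay between 25 and 30 in 5 settings, or 69.4% to 83.3%, beside 40.4% to 49.6% of all named genes. The authors' table is among these 5 settings too. At the 99th percentile of receptor probes, 146, which 27.5% of all genes passed, the number was 16. A higher limit calls fewer genes by its construction. The median lay between 92.5 and 154 in 5 settings, but that of all genes moved more: the medians of members and of all genes were 129.9 and 40.1 as reported, 154 and 75.5 with normexp, 152 and 80.7 over genes past the blank limit, and 92.5 and 13.9 with local background subtracted. Over 10 settings that give a ratio to the blank limit, 28 members stayed over it and Calcoco1 stayed under it, and 7 crossed. With 1 SD in place of 2, Ambra1 stood at 1.05 times the limit, Wipi1 at 1.04 and Atg9a at 1.01. With block limits they stood at 1.02, 1.04 and 1.002, and with the negative control limit Ambra1 stood at 1.01 and Wipi1 at 1.01. Atg3 fell to 0.982 times when the limit came from spots named No probe (95th percentile), 0.592 with local background subtracted and 0.965 with normexp. Atg4c fell to 0.926, 0.610 and 0.967 in these settings, to 0.990 with 3 SD, to 0.965 with the 99th percentile of the blanks and to 0.929 on its lowest probe. On their lowest probes Atg2b stood at 0.960 and Wipi2 at 0.817. Apart from limits that differ by construction, the cause was not tested. On 1 array, signals near the blank limit cannot be told from empty spots.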
